A study of Mus musculus with 14 samples.

Results

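Prostaglandin E2 (PGE2) was compared with its vehicle, dimethyl sulfoxide (DMSO), after 6 h on mouse leukemic stem cells, in 2 PGE2 and 3 DMSO libraries of the 14 in the series. Every gene was taken whose FPKM, averaged over those 5 libraries, reached 1, which gave 11181 of 24463 genes. FPKM counts the reads of a gene per unit of its length and per unit of library depth. The genes nearest that minimum were Prdm9, at a mean of 1.0006 FPKM and included, and Snhg9, at 0.9987 FPKM and left out.

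The cells model chronic myeloid leukemia. Marrow cells without lineage markers were infected 2 times, 24 h apart, with a retrovirus for p210 BCR-ABL, the kinase behind it, while they grew for 48 h with serum at 15%, thrombopoietin at 20 ng/ml and stem cell factor at 50 ng/ml. Sorted cells carried GFP, c-Kit and Sca1 and no lineage markers. They were taken to come from control marrow, because the recorded titles name a treatment and no gene deficiency. PGE2 was given at 20 µM and DMSO alone to the controls. The protocol described for the BCR-ABL virus, the culture and the sort was the same in both arms. Another arm had received 20 µM prostaglandin E1 (PGE1, n = 3). No source used here gives the mouse strain, age or number of donors, or says whether libraries came from separate or shared cultures. The p-values therefore reflect the spread of these libraries alone, which may be technical.

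PGE2 is made from arachidonic acid by cyclooxygenases and acts on a small family of G protein coupled receptors, EP1 to EP4, encoded by Ptger1 to Ptger4. EP2 and EP4 couple to the stimulatory G protein and raise cyclic AMP, which activates protein kinase A and the transcription factor CREB, while EP3 mostly couples to inhibitory G proteins and EP1 to calcium. In blood-forming tissue PGE2 is known as a regulator of stem and progenitor cells, and in myeloid cells as both a product and a brake of inflammation.

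One vehicle library stood apart and its labels disagree. DMSO replicate 1 is titled as a vehicle sample, but its genotype field names Tcf1/Lef1 deficiency; Tcf7, the gene of Tcf1, was at 1.03 FPKM in it against 0.850 and 1.53 in DMSO replicates 2 and 3 and 0.0219 to 0.142 in the 3 libraries titled as deficient. Over genes of middling abundance the mean chi-square per gene between libraries, which is 1 for counting noise alone, was 15.0 and 17.4 for the pairs with DMSO replicate 1, 1.86 between DMSO replicates 2 and 3, and 1.98 between the PGE2 libraries. Results are therefore given with and without that library. Depth was even, with 11.3 to 13.4 M reads (M, mega) in genes per library. The sort markers Kit (23.2, 27.6 and 27.5 FPKM in the DMSO libraries, 23.6 and 22.4 after PGE2) and Ly6a, the gene of Sca1 (17.8, 13.8 and 12.9, then 12.3 and 13.2), were present in every library and overlapped between the groups. The lineage antigens Cd3e, Cd4, Cd8a, Cd5 and Ly6g were below 1 FPKM throughout, but Itgam, the antigen CD11b, was at 46.9, 46.1 and 47.4 FPKM in DMSO and 63.1 and 62.4 after PGE2.

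More genes were called lower than higher after PGE2, a split that 2 of the alternative fits did not show. In limma, with all 8 treated libraries sharing 1 estimate of spread and with Benjamini-Hochberg adjustment over all genes, 670 of 11181 genes (5.99%) passed an adjusted p of 0.05: 116 (1.04%) were higher and 554 (4.95%) lower. Each difference was taken between means of log2(FPKM + 1), and so the change of a low gene is understated. The typical change was small, with a median of 0.44 among the higher genes and -0.60 among the lower ones, against 0.01 over all genes tested. A 2-fold change on that scale was reached by 1 higher gene, Vgf, and by 95 lower genes. In all 670 called genes the PGE2 and DMSO libraries did not overlap, as was true of 5512 (49.3%) of all genes tested. Statements below that called genes did not overlap therefore describe values and add no support to the calls.

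**Figure D1:**
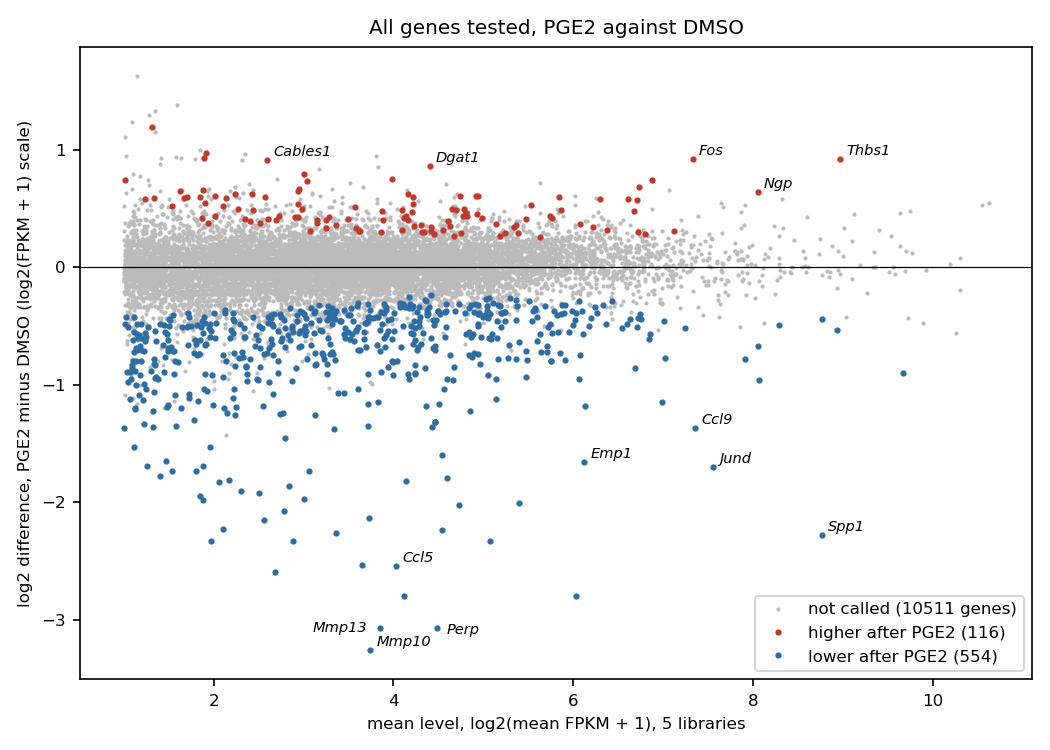
Difference between PGE2 and DMSO (vertical axis, log2 of FPKM + 1) against mean level over the 5 libraries (horizontal axis, log2) for the 11181 genes tested. The 554 genes that fell reach below -3 (Mmp10, Mmp13, Perp), while the 116 that rose mostly lie below 1.

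The lopsided split changed with the libraries in the fit and with its weighting. A fit of the 5 PGE2 and DMSO libraries alone called 1729 genes, 710 higher and 1019 lower (41.1% higher, against 17.3% here), and held all 670. The split was even or turned in 2 others: array weights gave 1913 higher and 1905 lower, and the 5 libraries without DMSO replicate 1 gave 1870 higher and 1654 lower. Without DMSO replicate 1, 578 genes were called (117 higher, 461 lower) and 495 of the 670 were among them. Leaving out DMSO replicate 2 or 3 gave 255 calls each, leaving out PGE2 replicate 1 or 2 gave 179 and 136, and leaving out PGE1 replicate 2, one of the libraries behind the shared spread, gave 1270. A core of 5 higher genes (Cables1, Cnnm2, Dgat1, Slc2a3 and Vgf) and 117 lower genes was called whichever of the 8 libraries was left out; below, such genes are said to hold throughout.

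Secreted matrix metalloproteinases, enzymes that cut collagens and other matrix proteins, held 3 of the 25 largest falls. Mmp10 (stromelysin 2) was at 19.4, 20.7 and 19.5 FPKM in the DMSO libraries and at 1.40 and 0.969 after PGE2, a 16.8-fold fall (log2 difference -3.26, SE 0.11, limma adjusted p = 1.66e-06). Mmp13 (collagenase 3) went from 19.0, 22.7 and 22.0 FPKM to 1.68 and 1.59, which is 13-fold lower (-3.07, SE 0.10, limma adjusted p = 1.66e-06). Mmp12 (macrophage elastase) measured 38.2, 37.0 and 35.9 FPKM against 8.76 and 7.98 and fell 4.42-fold (limma adjusted p = 3.72e-05). In each of these enzymes every PGE2 library lay under every vehicle library, which the rule for the 25 required, and all 3 calls hold throughout. Mmp19 fell by less, from a mean of 38.7 ± 1.30 (SD, n = 3) to 30.7 ± 1.35 FPKM (SD, n = 2; limma adjusted p = 0.0489), a call lost without any one of DMSO replicates 1, 2 and 3, PGE1 replicate 1 and either PGE2 library. The other 5 of the 9 Mmp genes tested were not called, so 44.4% were called, against 5.99% of all genes. Among them Mmp9 (gelatinase B) was at 1.56, 1.21 and 1.09 FPKM in DMSO and at 2.46 and 2.13 after PGE2 (limma adjusted p = 0.0594), and Mmp8 and Mmp14 were at means of 20.6 and 4.02 FPKM after PGE2 against 25.5 and 3.23. Of their tissue inhibitors, Timp2 and Timp3 were not called, with Timp2 at 4.02 ± 0.0315 after PGE2 against 3.32 ± 0.102 FPKM.

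Mmp10, Mmp12 and Mmp13 lie close together on chromosome 9, and RefSeq promoters (GRCm38.p6) of all 3 hold the AP-1 motif TGANTCA, searched on both strands in the 250 bases before each listed start. Of the 25 genes with the largest falls, 18 had a RefSeq promoter and 5 of those, 27.8%, held the motif (Mmp10, Mmp13, Mmp12, Tnfrsf9 and Emp1), against 7.82% of all 27025 genes with a promoter in the table. None of the 14 matched promoters of the 25 largest rises held it. The cAMP response element TGACGTCA was in none of either set, against 1.77% of all genes. The kappaB motif was in 2 of the 18 (11.1%) and 4 of the 14 (28.6%), against 4.46%. Sets this small cannot tell an absence from such low shares, and 3 of the 5 AP-1 genes are the neighbouring Mmp genes. The 150 bases before the start of Mmp10 and Mmp13 are shown with the motif in capitals because both genes are among the 3 largest falls on the log2 scale, with Perp; in Mmp10 the motif begins 63 bases and in Mmp13 35 bases before the start, at chr9:7502192-7502341 and chr9:7272364-7272513, both on the plus strand. These matches describe letters only, and binding was not measured.
Mmp10: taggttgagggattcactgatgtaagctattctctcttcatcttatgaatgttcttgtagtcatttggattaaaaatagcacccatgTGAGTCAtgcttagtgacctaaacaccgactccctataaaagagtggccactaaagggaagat
Mmp13: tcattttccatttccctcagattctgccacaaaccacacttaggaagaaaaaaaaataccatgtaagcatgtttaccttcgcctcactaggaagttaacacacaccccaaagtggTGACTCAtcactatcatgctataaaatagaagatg

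Chemokines and other secreted cytokines formed the list with the most falls. Of its 29 genes tested, 14 fell, 2 rose and 13 were not called, with a median log2 difference of -0.52 against 0.01 over all genes. Called were 55.2%, against 5.99% of all genes. Ccl5, the chemokine RANTES that attracts T cells and monocytes, was at 23.4, 22.2 and 24.6 FPKM in DMSO and 2.94 and 3.46 after PGE2 (7.31-fold lower, log2 difference -2.54, SE 0.14, limma adjusted p = 3.72e-05). Ccl4, which with Ccl3 encodes the macrophage inflammatory proteins, was at 62.4, 58.9 and 57.1 FPKM and then 15.0 and 13 (4.25-fold lower, limma adjusted p = 8.50e-05). Ccl3 itself was at 44.2, 43.1 and 44.2 FPKM and then 19.8 and 19.6 (2.23-fold lower, limma adjusted p = 0.00232). None of these ranges met, and DMSO replicate 1 lay close to the other vehicle libraries. Spp1, osteopontin, a secreted phosphoprotein that binds integrins and CD44, was the most abundant of the set and went from 633, 643 and 634 FPKM to 137 and 124 (4.89-fold lower, limma adjusted p = 4.94e-05).

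Further down the list, Ccl9 fell from 217 ± 1.83 to 83.3 ± 2.75 FPKM, Ccl22 from 5.14 ± 0.537 to 1.56 ± 0.0899, Ccl24 from 1.71 ± 0.278 to 0.662 ± 0.0719 and Ccl6 from 105 ± 7.43 to 72.9 ± 1.23 (mean ± SD, n = 3 and 2). Counting by symbol, 7 of the 10 Ccl genes tested fell (70.0%, against 5.99% of all genes called) and none rose, with a median of -0.91. Of the other 3, Ccl25 was below vehicle and Ccl7 above, and Ccl2, the monocyte attractant MCP-1, was at 18.1, 12.2 and 15.1 FPKM in DMSO and 19.2 and 19.0 after PGE2 (limma adjusted p = 0.421). Among CXC chemokines, Cxcl3, a neutrophil attractant, fell from 60.6 ± 3.05 to 37.7 ± 3.69 FPKM, while its relative Cxcl2 was at 9.35 ± 0.173 and 9.56 ± 1.11 and was not called. Tnf fell from 6.68, 7.35 and 7.42 FPKM to 4.95 and 3.99, and Lif, Il1rn (the interleukin 1 receptor antagonist), Tnfsf14 (LIGHT) and Hbegf, a ligand of the EGF receptor, fell as well. Hbegf dropped from 8.05, 8.12 and 7.56 FPKM to 2.92 and 2.61 (2.86-fold, limma adjusted p = 1.32e-04). The 2 secreted factors that rose were Vegfa, the endothelial growth factor (26.0, 23.8 and 23.2 FPKM, then 37.8 and 37.3, limma adjusted p = 0.00356), and Ppbp, a platelet chemokine (27.0 ± 3.08 to 36.4 ± 2.06 FPKM). Il1b was not called, at 3.41 ± 0.305 and 5.95 ± 0.261 FPKM. The calls of 7 genes, Ccl3, Ccl4, Ccl5, Ccl9, Tnfsf14, Hbegf and Spp1, hold throughout; without DMSO replicate 1, 13 genes of the list were lower, without PGE2 replicate 1, 8 of the 14 were still called and without PGE2 replicate 2, 7.

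Other large falls were in genes of membrane proteins and receptors. Perp, a desmosome-linked membrane protein and p53 target, was at 32.1, 35.9 and 32.5 FPKM in DMSO and 3.55 and 2.68 after PGE2 (10.7-fold lower, log2 difference -3.07, SE 0.10, limma adjusted p = 1.66e-06). Pdpn, podoplanin, a mucin-type glycoprotein that binds the platelet receptor CLEC-2, went from 13.4, 14.8 and 13.8 to 1.97 and 2.30 FPKM (6.56-fold lower, limma adjusted p = 3.72e-05). Tnfrsf9, the costimulatory receptor 4-1BB, went from 31.0, 32.6 and 34.5 to 9.11 and 8.39 FPKM (3.74-fold lower, limma adjusted p = 2.63e-05). All 3 were separated between the groups by several times their spread within a group. Tnfrsf11b, osteoprotegerin, a secreted decoy receptor for RANK ligand, fell 15.8-fold from a mean of 5.29 ± 0.904 to 0.335 ± 0.105 FPKM. Scimp, an adaptor of immune cell membranes, fell from 7.52 ± 0.409 to 0.952 ± 0.501 FPKM, and Emp1, a tetraspan epithelial membrane protein, from 94.7 ± 5.98 to 29.2 ± 1.1. Of the TNF receptor superfamily 2 of 15 genes tested fell (13.3%, Tnfrsf9 and Tnfrsf11b). Of its ligands 3 of 7 fell (42.9%, Tnf, Tnfsf4 and Tnfsf14), and over all genes 5.99% were called. Tnfsf4, the OX40 ligand, was at 6.52 ± 0.814 and then 2.31 ± 0.283 FPKM.

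Hormones and growth factors were also among the 25 largest falls. Npy, neuropeptide Y, was at 21.9, 24.7 and 24.4 FPKM in DMSO and 5.29 and 6.70 after PGE2 (3.94-fold lower, limma adjusted p = 1.32e-04). Inhba, the subunit of activin A, was at 7.26, 9.78 and 10.3 FPKM and then 1.98 and 1.54 (5.17-fold lower, limma adjusted p = 2.52e-04). Pgf, placental growth factor and a relative of Vegfa, moved against Vegfa, from 20.7, 16.5 and 17.4 to 3.23 and 3.53 FPKM (5.38-fold lower, limma adjusted p = 8.50e-05). Every one of these was lower in both PGE2 libraries than in any vehicle library, which the rule for the 25 required. Nov (CCN3), a matricellular protein known as a growth regulator of blood progenitors, fell from 10.6 ± 1.19 to 2.48 ± 0.426 FPKM. Uchl1, a ubiquitin hydrolase, fell from 33.1 ± 2.12 to 6.20 ± 0.616 FPKM, and the actin-binding protein gene Avil from 8.90 ± 0.187 to 1.36 ± 0.283. Zbtb32, a zinc finger repressor, Efr3b, Pxdc1 and Crisp1 also lay among the 25 largest falls, at 1.12, 0.866, 1.93 and 0.603 FPKM after PGE2 against 7.04, 6.00, 10.4 and 8.65. Stfa2, a stefin A cysteine protease inhibitor, fell from 9.89 ± 1.44 to 1.16 ± 0.0547 FPKM; Stfa1 and Stfa3 fell too, but stefin copies are near identical and no source used here says how shared reads were counted. The short microRNA gene model Mir6386 (3.57, 8.89 and 3.59 FPKM, then 0.884 and 0.505) was the only one of the 25 whose call was lost without either PGE2 library.

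Protease inhibitors and other families counted by symbol were examined as well, after their values were seen. Of 13 serpin genes tested, which encode inhibitors of serine proteases, 6 fell and none rose, with a median of -0.49 (46.2% called, against 5.99% of all genes). Serpinb6b was at 4.24, 4.22 and 3.90 FPKM in DMSO and 1.31 and 1.24 after PGE2 (3.23-fold lower, limma adjusted p = 4.85e-04), and Serpinb9, an inhibitor of granzyme B, at 6.42, 8.80 and 7.94 and then 2.91 and 2.38 (2.92-fold lower, limma adjusted p = 7.95e-04). Both were separate between the groups and hold throughout, as did 4 of the 6. Among 6 semaphorins, guidance proteins, 3 fell and 1 rose (66.7% called). Sema4d fell from 42.0, 51.3 and 51.8 to 27.4 and 27.8 FPKM and holds throughout. Sema7a fell from 3.85 ± 0.240 to 1.57 ± 0.0211, and Sema4a rose from 38.3 ± 2.68 to 51.2 ± 0.335. Anxa2, annexin A2, a membrane-binding protein, fell from 327, 307 and 302 to 198 and 193 FPKM, a call lost without either PGE2 library. Of 9 annexins tested 3 were lower (33.3% called). Slfn1, a Schlafen gene of growth restraint, fell from 16.1, 16.7 and 16.5 to 5.96 and 5.71 FPKM (2.82-fold, limma adjusted p = 8.41e-04) and holds throughout.

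**Figure D2:**
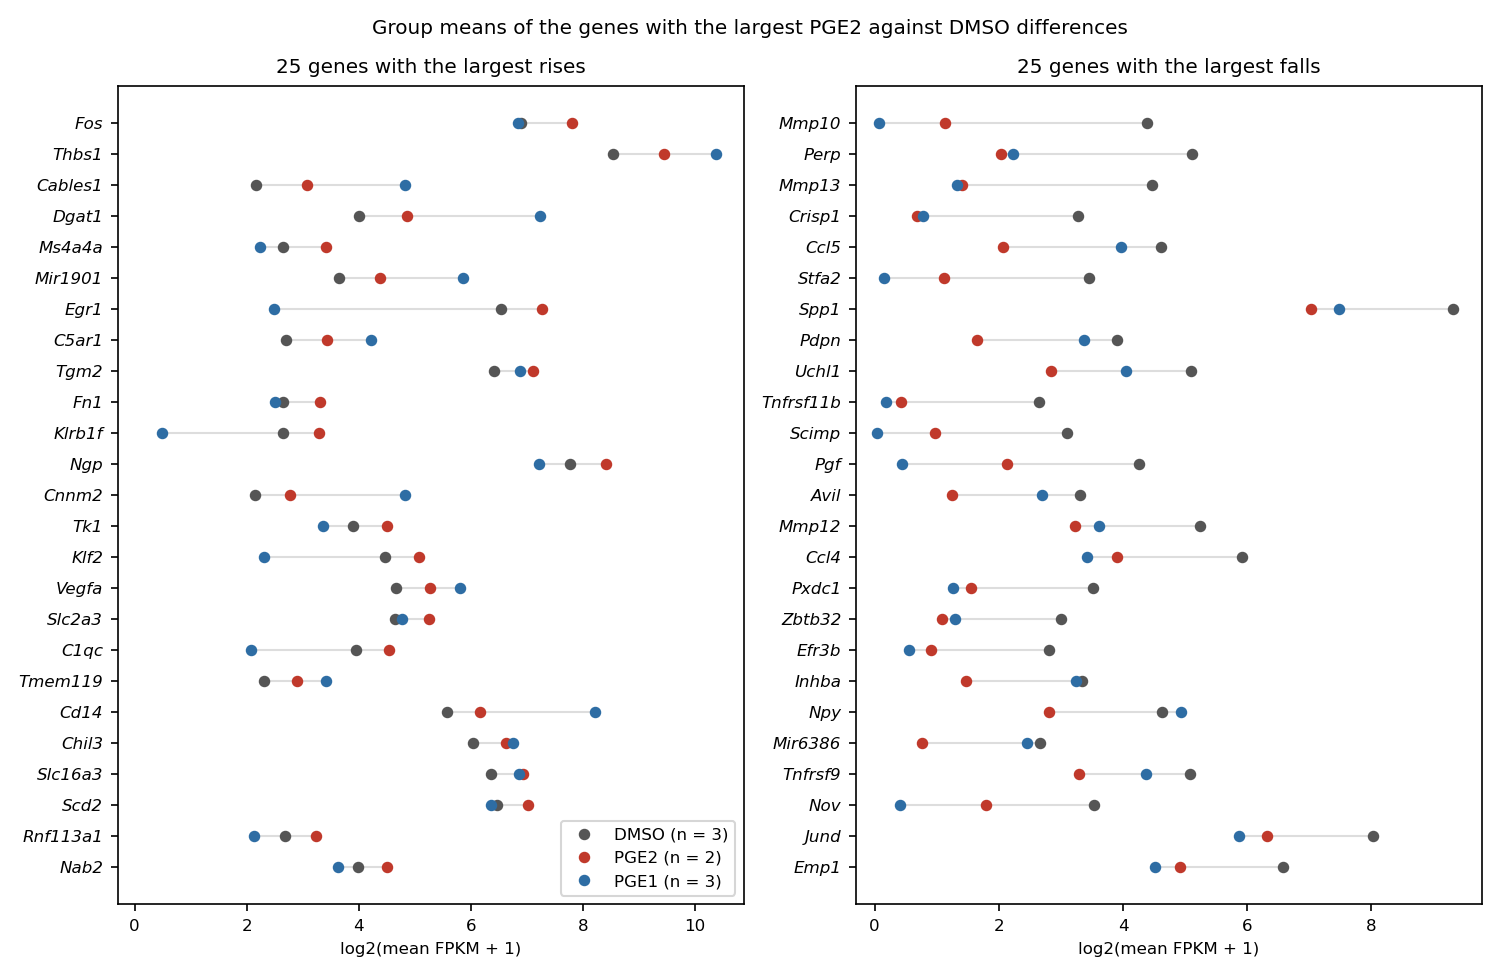
Group means (log2 of mean FPKM + 1) of the 25 genes with the largest rises and the 25 with the largest falls after PGE2, for DMSO (n = 3), PGE2 (n = 2) and PGE1 (n = 3). Falls such as Mmp10 (19.9 to 1.19 FPKM) span several log2 units, and rises such as Cables1 (3.49 to 7.41 FPKM) about 1.

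AP-1, a dimer of Fos, Jun and related leucine zipper proteins, was split by subunit. Of 14 genes tested 1 rose, 4 fell and 9 were not called, with a median of 0.10 (35.7% called, against 5.99% of all genes). Fos was at 131, 106 and 116 FPKM in DMSO and 213 and 233 after PGE2 (1.89-fold higher, log2 difference 0.92, SE 0.13, limma adjusted p = 0.00397). Jund was at 230, 267 and 280 FPKM and then 76.4 and 81.0 (3.29-fold lower, -1.70, SE 0.09, limma adjusted p = 3.72e-05). Fosb, a partner with a shape like that of Fos, was at 108, 120 and 124 FPKM and then 86.8 and 90.1 (1.33-fold lower, limma adjusted p = 0.0194). Fos was thus higher in both PGE2 libraries than in every vehicle library, and Jund and Fosb lower. Atf3, a stress-induced repressor that pairs with Jun proteins, fell from 18.3, 17.2 and 18.9 to 10.2 and 9.83 FPKM, and the small Maf gene Mafk from 18.7 ± 1.02 to 14.9 ± 0.262. Jun (31.7 ± 1.02 and 33.8 ± 0.0378 FPKM) and Junb (71.8 ± 3.92 and 75.6 ± 3.07) were not called. The Jund call holds throughout, while that of Fos was lost without PGE2 replicate 2, that of Atf3 without either PGE2 library, and those of Fosb and Mafk without DMSO replicate 2 or 3 or either PGE2 library.

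Immediate early genes outside AP-1, which serum and growth factors switch on within minutes, moved both ways. Of 25 tested, 3 rose and 7 fell, with a median of -0.02 (40.0% called, against 5.99% of all genes). Egr1, a zinc finger factor, was at 106, 83.2 and 86.1 FPKM in DMSO and 151 and 156 after PGE2 (1.67-fold higher, log2 difference 0.74, SE 0.16, limma adjusted p = 0.0297). Klf2, a factor of cell quiescence and trafficking, was at 24.0, 19.3 and 20.2 FPKM and then 31.9 and 33.6 (1.55-fold higher, limma adjusted p = 0.0312). Nr4a1, an orphan nuclear receptor, was at 2.51, 2.28 and 2.26 FPKM and then 4.08 and 4.16 (1.75-fold higher, limma adjusted p = 0.00381). Within these genes DMSO replicate 1 was the vehicle library nearest to PGE2, and it did not reach the PGE2 values. Nab2, a corepressor that binds EGR proteins and is itself an EGR target, rose from 16.7, 14.2 and 13.3 to 21.6 and 22.0 FPKM (limma adjusted p = 0.0114). The related Nr4a2 (1.16 ± 0.0960 and 1.21 ± 0.0689 FPKM), Egr2 (1.09 ± 0.0891 and 1.05 ± 0.0878) and Ier2 (54.1 ± 7.48 and 62.2 ± 6.12) were not called. Ier5, whose protein takes part in the heat shock and cell cycle response, went from 30.1, 29.9 and 30.4 to 16.3 and 16.4 FPKM (1.85-fold lower, limma adjusted p = 8.71e-04). Gadd45a, Btg1, Klf6 and Spry2 fell by 1.48-fold, 1.35-fold, 1.32-fold and 1.71-fold. The calls of Egr1 and Klf2 were lost without any one of DMSO replicates 2 and 3 and the PGE2 libraries, and that of Nr4a1 without either PGE2 library; only Ier5, Dusp1 and Dusp5 of the list hold throughout.

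Several feedback phosphatases that switch off MAP kinases fell. Dusp1 (MKP-1) was at 51.9, 53.4 and 56.0 FPKM in DMSO and 26.8 and 28.7 after PGE2 (1.94-fold lower, log2 difference -0.93, SE 0.07, limma adjusted p = 1.32e-04). Dusp5, which acts on ERK in the nucleus, was at 32.6, 33.7 and 36.3 FPKM and then 20.0 and 19.4 (1.73-fold lower, limma adjusted p = 5.72e-04). Dusp10, which acts on the stress kinases JNK and p38, was at 3.10, 3.07 and 2.89 FPKM and then 0.661 and 0.852 (3.99-fold lower, limma adjusted p = 2.62e-04). Counting by symbol, 5 of 15 Dusp genes tested fell and none rose, and these 3 hold throughout. Over all genes 5.99% were called, against 33.3% of these Dusp genes. The regulators of G protein signalling, which speed the end of a receptor's signal, had 3 falls among 11 genes (27.3%) and no rise. Rgs1 was at 22.7, 22.1 and 21.8 FPKM and then 13.4 and 14.3, Rgs12 at 5.75 ± 0.263 and 3.20 ± 0.309, and the receptor kinase gene Grk5 at 2.22 ± 0.282 and 1.29 ± 0.294. The calls of all 3 were lost without either PGE2 library, and that of Grk5 with any 1 library left out other than PGE1 replicate 2.

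**Figure D3:**
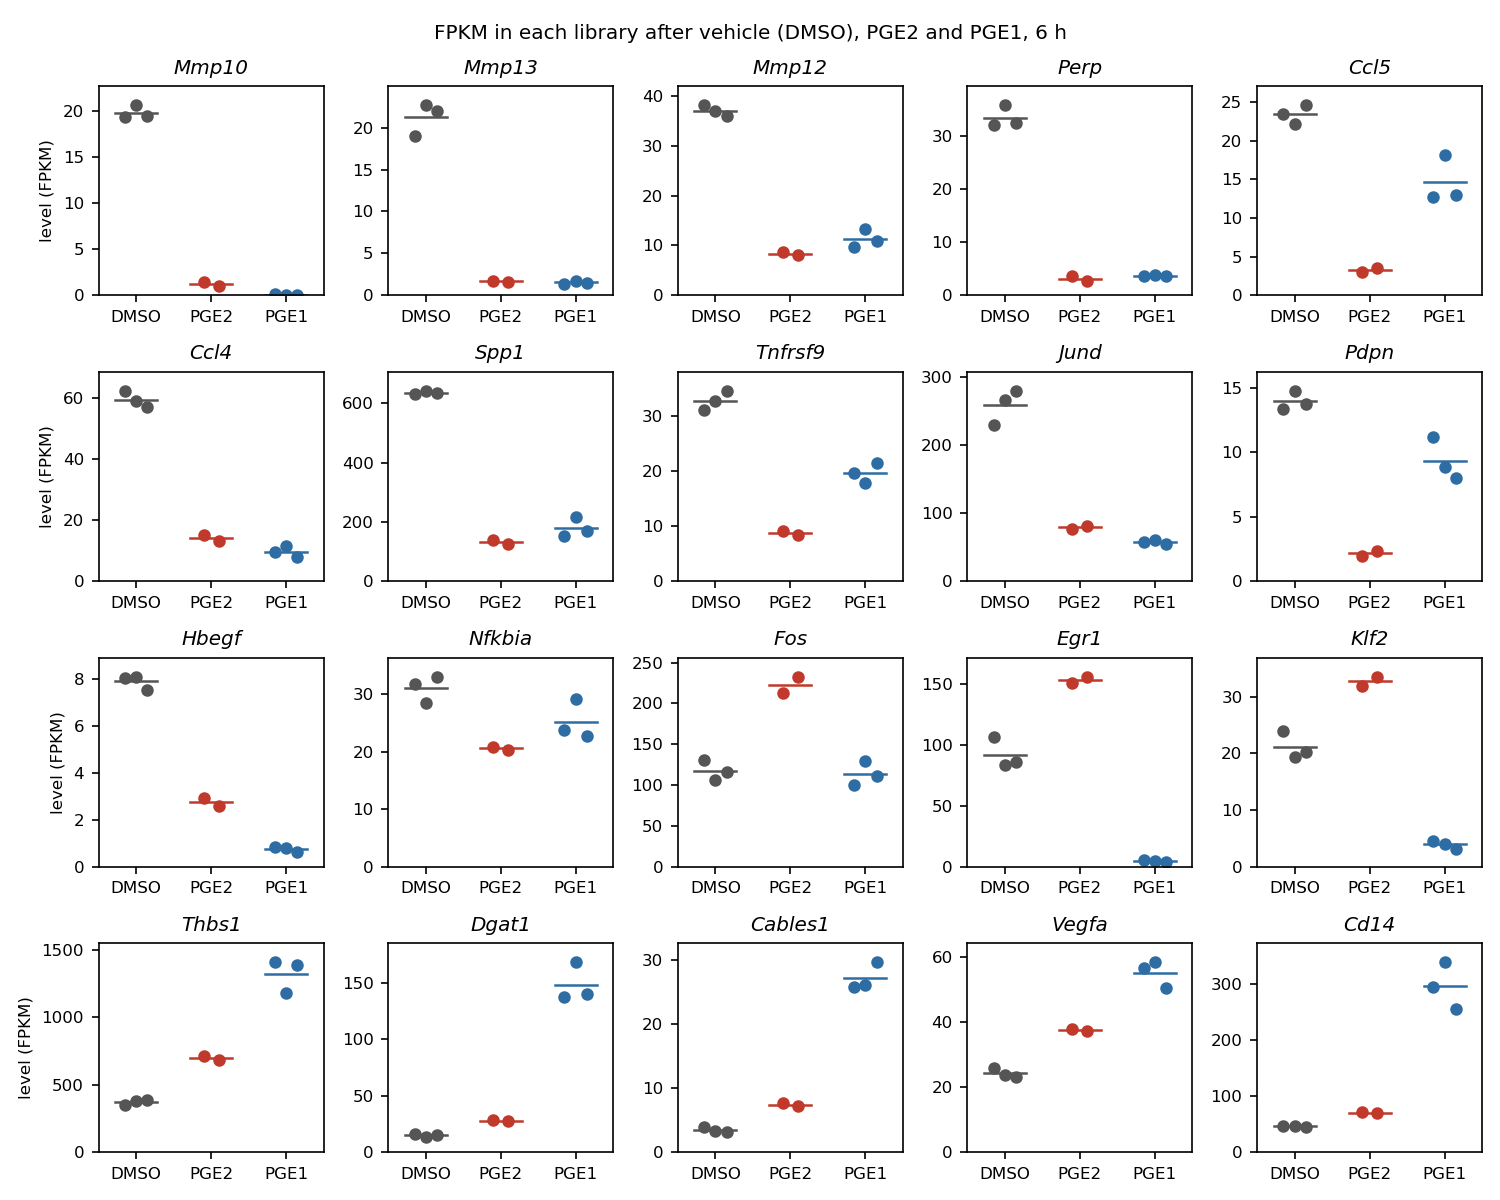
FPKM of 20 genes in each library (points; the line is the group mean) after DMSO, PGE2 and PGE1. PGE2 libraries lie under every DMSO library in the first 12 genes, from Mmp10 to Nfkbia, and above every one in the last 8, from Fos to Cd14. All 20 were called, and no called gene overlapped.

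Among the receptors for prostanoids only Ptger4 changed. EP4, its product, is the receptor of PGE2 that raises cyclic AMP with high affinity. Ptger4 was at 4.78, 4.84 and 4.86 FPKM in DMSO and 2.21 and 2.62 after PGE2 (2-fold lower, log2 difference -0.77, SE 0.13, limma adjusted p = 0.00982). Both PGE2 values were below all 3 vehicle values, which themselves were tightly grouped, and the call of Ptger4 was kept without DMSO replicate 1 (limma adjusted p = 0.0292) and lost without either PGE2 library. The most abundant receptor was Ptger1, at 28.6, 27.8 and 29.1 FPKM in DMSO and 27.6 and 25.7 after PGE2 (limma adjusted p = 0.458). Ptger3 was at 7.97 ± 0.112 and 7.73 ± 0.472 FPKM, Ptger2 at 1.5 ± 0.147 and 1.83 ± 0.0902, and Ptgir, the prostacyclin receptor, at 7 ± 0.427 and 7.50 ± 0.155, none of them called. Ptgfr and Ptgdr, the receptors for prostaglandins F and D, were near 0 throughout. None of the 15 eicosanoid synthesis and breakdown genes tested was called, with Ptgs2 (cyclooxygenase 2) at 5.22 ± 0.849 and 6.32 ± 0.732 FPKM; the 5 libraries alone gave 3 higher and 1 lower.

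Of 24 genes of cyclic AMP and protein kinase A machinery 2 rose and 1 fell (12.5% called, against 5.99% of all genes), with a median of 0.01. Pde4d, a phosphodiesterase that breaks down cyclic AMP, was at 1.36, 1.61 and 1.47 FPKM in DMSO and 2.72 and 2.38 after PGE2 (1.72-fold higher, limma adjusted p = 0.0261). Pde3b, another such enzyme, was at 2.64, 3.51 and 3.32 FPKM and then 4.95 and 4.74 (1.54-fold higher, limma adjusted p = 0.0477). Adcy3, which makes cyclic AMP, was at 3.50, 3.74 and 3.50 FPKM and then 2.38 and 2.25 (1.55-fold lower, limma adjusted p = 0.0441). In each the groups were separate, but without DMSO replicate 1 Pde4d, Pde3b and Adcy3 were not called (limma adjusted p = 0.0649, 0.0900 and 0.0814), nor without DMSO replicate 2 or 3 or either PGE2 library; the last 2 were also lost without PGE1 replicate 1. The kinase subunit genes Prkaca (17.7 ± 1.24 and 17.9 ± 0.00439 FPKM) and Prkar1a (81.0 ± 1.27 and 83.4 ± 0.308) were not called. Nor were Creb1 (7.71 ± 0.477 and 8.23 ± 0.218 FPKM), its cyclic AMP-induced relative Crem (4.18 ± 0.332 and 5.88 ± 0.620, limma adjusted p = 0.184) or the feedback kinase Sik1 (3.83 ± 0.443 and 5 ± 0.703, limma adjusted p = 0.154). Creb3, a relative anchored in the endoplasmic reticulum, fell from 16.6 ± 1.54 to 11.1 ± 1.45 FPKM, a call lost without any one vehicle or PGE2 library or PGE1 replicate 3. Known targets of cyclic AMP and CREB divided, with 3 of 30 higher (Nr4a1, Thbs1 and Pde4d) and 4 lower (Rgs1, Dusp1, Gadd45g and Plk2), which is 23.3% called.

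Of 21 NF-kB subunits and targets tested, 7 fell and none rose, with a median of -0.31 (33.3% called, against 5.99% of all genes). Below 0 were 18 of the 21, against 5448 of 11181 over all genes. NF-kB is the family of factors that drives inflammatory and survival genes, and Nfkbia encodes its inhibitor, which is also its target. Nfkbia was at 31.8, 28.5 and 33.1 FPKM in DMSO and 20.9 and 20.3 after PGE2 (1.51-fold lower, log2 difference -0.57, SE 0.11, limma adjusted p = 0.0193). Nfkb2, the precursor of subunit p52, was at 20.2, 20.7 and 22.2 FPKM and then 13.7 and 13 (1.58-fold lower, limma adjusted p = 0.00195). Relb, the partner of that subunit, was at 6.26, 5.90 and 7.54 FPKM and then 3.63 and 3.32 (1.89-fold lower, limma adjusted p = 0.00397). No PGE2 value of these reached a vehicle value. Traf1, an adaptor of TNF receptors, fell from 4.90 ± 0.485 to 1.86 ± 0.0372 FPKM, and Rela and Tnip1 fell by 1.27-fold and 1.31-fold. Tnfaip3, the feedback inhibitor A20, was at 4.76 ± 0.802 and 3.41 ± 0.194 FPKM and was not called. The calls of Nfkb2 and Traf1 hold throughout, and 3 and 2 of the 7 were kept without PGE2 replicates 1 and 2. Nfkbia was at 20.6 ± 0.426 FPKM after PGE2 and its call was at the edge without DMSO replicate 1 (limma adjusted p = 0.0504).

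Of the 7 genes that fell, 6 had a RefSeq promoter. The kappaB motif was in 3 of them (Nfkb2, Nfkbia and Tnip1), in the 250 bases before a listed start, on either strand. Over all genes with a promoter in the table the share was 4.46%. The list was made of known NF-kB subunits and targets, and its 14 members that were not called were not searched. The share therefore does not set the falls apart from the rest of the list. The window of Nfkbia is shown, as the textbook NF-kB target among them, with the motif in capitals beginning 29 bases before the start (RefSeq, GRCm38.p6, chr12:55492648-55492797, minus strand).
Nfkbia: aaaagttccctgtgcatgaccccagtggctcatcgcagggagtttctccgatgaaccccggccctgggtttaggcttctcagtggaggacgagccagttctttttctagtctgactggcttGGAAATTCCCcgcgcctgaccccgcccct

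Interferon response genes leaned the same way, with 6 of 27 lower, none higher and a median of -0.37 (22.2% called, against 5.99% of all genes). Below 0 were 26 of the 27, against 5448 of 11181 over all genes. Isg15, a ubiquitin-like protein, was at 26.7, 24.0 and 25.5 FPKM in DMSO and 9.84 and 11.5 after PGE2 (2.38-fold lower, limma adjusted p = 0.00122), and the groups lay far apart. Gbp2, a GTPase induced by interferon gamma, was at 11, 10.6 and 10.9 FPKM and then 5.84 and 4.75 (2.04-fold lower, limma adjusted p = 0.00544). Stat2, Isg20, Oas1a and Ifi44 fell by 1.33-fold, 1.75-fold, 1.55-fold and 2.10-fold. Irf7, the interferon regulatory factor, was at 12.9 ± 1.39 and 9.89 ± 0.601 FPKM and was not called. Isg15 alone holds throughout, with 4 of the 6 kept without DMSO replicate 1 and 2 and 1 kept without PGE2 replicates 1 and 2; the 5 libraries alone called 16 lower and 1 higher. Of 17 MHC class I genes counted by symbol, which present peptides to T cells, 8 fell (47.1%) and none rose (median -0.37). H2-K1 was at 584, 542 and 550 FPKM and then 390 and 383 (1.45-fold lower, limma adjusted p = 0.0246), and H2-D1 at 487 ± 15.7 and 358 ± 9.24. These copies share much sequence, and only 2 of the 17 were called without DMSO replicate 1.

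Cytokine signalling genes were examined in a list of targets and a list of receptors. Of 24 STAT5 targets and cytokine feedback genes 5 fell and none rose (20.8% called), with a median of -0.04. Socs3, a suppressor of JAK kinases, was at 36.3, 36.0 and 37.6 FPKM in DMSO and 20.5 and 20.1 after PGE2 (1.8-fold lower, log2 difference -0.82, SE 0.08, limma adjusted p = 6.37e-04). Socs1, a second suppressor, was at 31.7, 31.8 and 36.1 FPKM and then 20.0 and 18.7 (1.72-fold lower, limma adjusted p = 0.0165). Il2ra, the alpha chain of the interleukin 2 receptor and a STAT5 target, was at 2.72, 3.15 and 3.69 FPKM and then 0.903 and 1.06 (3.26-fold lower, limma adjusted p = 0.00128). All vehicle values exceeded all PGE2 values in each. Cish, which STAT5 induces, fell from 36.2 ± 1.06 to 26.5 ± 0.519 FPKM, and Bcl6, a repressor, from 3.21 ± 0.218 to 1.86 ± 0.123. Pim1, a STAT5-induced kinase gene, was not called, at 160 ± 4.51 and 185 ± 2.18 FPKM. Socs3 and Il2ra hold throughout; without PGE2 replicate 1 or 2, 2 of the 5 were kept each time. Among 22 myeloid cytokine receptors 4 fell (Csf2rb2, Il1r1, Il4ra and Il17ra) and 1 rose (22.7% called, against 5.99% of all genes). Of the 4 falls 2 were kept without DMSO replicate 2 and 2 without DMSO replicate 3. No call of this receptor list holds throughout. Il1r1, the interleukin 1 receptor, was at 5.10, 6.17 and 6.49 FPKM and then 2.89 and 2.28 (2.29-fold lower), and Ifngr1, the interferon gamma receptor, rose from 49.2 ± 3.02 to 69.5 ± 0.550 (limma adjusted p = 0.00852).

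The median rise among called genes, 0.44 on the log2 scale, was smaller than the median fall, -0.60. Thbs1, thrombospondin 1, a secreted matrix glycoprotein, was the most abundant of the 25 largest rises, at 348, 378 and 386 FPKM in DMSO and 711 and 687 after PGE2 (1.89-fold higher, log2 difference 0.92, SE 0.12, limma adjusted p = 0.00292). Cables1, an adaptor of cyclin-dependent kinases, was at 3.95, 3.37 and 3.15 FPKM and then 7.63 and 7.19 (2.12-fold higher, limma adjusted p = 0.00119). Dgat1, which makes triglyceride from diacylglycerol, was at 16.3, 13.4 and 15.3 FPKM and then 28.2 and 27.6 (1.86-fold higher, limma adjusted p = 0.00245). In each of these both PGE2 libraries lay above all vehicle libraries, which the rule for the 25 required. Cnnm2, a magnesium transporter, rose from 3.44 ± 0.0549 to 5.84 ± 0.0940 FPKM (limma adjusted p = 0.00141). Below the level needed to rank among the 25, Vgf, a secreted neuropeptide precursor, rose from 0.509, 0.897 and 0.549 to 2.66 and 2.82 FPKM (4.21-fold, limma adjusted p = 0.00287), Nrg1, a ligand of ERBB receptors, from 1.73 ± 0.299 to 4.18 ± 0.478, and the imprinted gene Peg10 from 1.73 ± 0.470 to 4.35 ± 0.868; these 3 were named after their values were seen.

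Other genes among the 25 rises encode proteins known from phagocytes. C5ar1, the receptor of complement fragment C5a, was at 5.66, 5.36 and 5.50 FPKM in DMSO and 10.3 and 9.33 after PGE2 (1.79-fold higher, limma adjusted p = 0.0147). Cd14, a coreceptor for bacterial lipopolysaccharide, was at 47.7, 47.4 and 44.7 FPKM and then 72.1 and 69.6 (1.52-fold higher, limma adjusted p = 0.0166). C1qc, a chain of complement C1q, was at 16.9, 13 and 13.4 FPKM and then 22.2 and 22.3 (1.54-fold higher, limma adjusted p = 0.0213). Each was higher in both PGE2 libraries than in any vehicle library, which the rule for the 25 required. Ms4a4a rose from 5.23 ± 0.915 to 9.67 ± 0.409 FPKM, Chil3, a chitinase-like lectin of myeloid cells, from 64.8 ± 5.31 to 97.5 ± 3.67, Ngp, neutrophilic granule protein, from 216 ± 24.2 to 338 ± 17.0, Fn1, fibronectin, from 5.28 ± 0.295 to 8.96 ± 0.196, and Tgm2, a transglutaminase, from 84.5 ± 4.21 to 136 ± 2.78. Klrb1f, Tmem119, Rnf113a1 and the microRNA gene model Mir1901 completed the 25 together with the metabolic and factor genes described elsewhere. Of the 25, 23 were still called without DMSO replicate 1 (not Tgm2 and Scd2), but only 10 and 11 without DMSO replicates 2 and 3, and 5 and 4 without PGE2 replicates 1 and 2; of the 25 falls 24 stayed without either PGE2 library.

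Most genes of glucose use and lipid synthesis lay above 0, and the called shares, 25.9% and 22.6%, were above the 5.99% of all genes. Of 27 glycolysis and hypoxia response genes 6 rose (Slc2a1, Slc2a3, Pgam1, Vegfa, Egln1 and P4ha1) and 1 fell, with a median of 0.37. Above 0 were 24 of the 27, against 5733 of 11181 over all genes. Of the 6 rises only 2 were kept without DMSO replicate 2, and 2 without DMSO replicate 3. Slc2a3, the glucose carrier GLUT3, was at 24.9, 23.2 and 23.8 FPKM in DMSO and 37.5 and 36.5 after PGE2 (1.54-fold higher, log2 difference 0.61, SE 0.06, limma adjusted p = 0.00107) and holds throughout. Slc2a1, the carrier GLUT1, was at 63.9, 56.7 and 57.2 FPKM and then 77.6 and 76.3 (1.30-fold higher, limma adjusted p = 0.0224). The lactate exporter Slc16a3 (MCT4), outside that list, was at 85.7, 78.3 and 78.1 FPKM and then 119 and 122 (1.5-fold higher, limma adjusted p = 0.00640). The PGE2 libraries were above all vehicle libraries in each. Ldha, lactate dehydrogenase A, was at 339 ± 23.2 and 457 ± 8.33 FPKM and Hk2, hexokinase 2, at 29.2 ± 0.696 and 40.1 ± 0.0419, neither of them called (limma adjusted p = 0.140 and 0.0893); the 5 libraries alone called 18 of the 27 higher. Ndrg1, a hypoxia-induced gene, fell from 35.7 ± 0.522 to 27.3 ± 1.55 FPKM. Of 31 cholesterol and fatty acid genes 6 rose and 1 fell (median 0.24). Scd2, a fatty acid desaturase, rose from 86.8 ± 4.09 to 129 ± 2.58 FPKM, and Mvd, Cyp51, Nsdhl and Dhcr7, enzymes of sterol synthesis, by 1.37-fold, 1.26-fold, 1.35-fold and 1.27-fold. The sterol exporters parted, Abca1 rising from 0.968 ± 0.0676 to 1.95 ± 0.0255 FPKM and Abcg1 falling from 6.14 ± 0.132 to 4.05 ± 0.156. Of these 6 sterol and lipid rises 3 were kept without DMSO replicate 1 and none without DMSO replicate 2 or 3.

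Genes of cell growth and division gave few calls, with DNA replication genes at 6.90% near the 5.99% of all genes. Over all genes 5733 of 11181 were above 0. Of 29 DNA replication genes 27 were above 0 with a median of 0.25, but only Tk1, thymidine kinase 1 (15.4, 12.7 and 13.3 FPKM, then 22.3 and 21.0, limma adjusted p = 0.0435), and Cdc45, a helicase factor (28.6, 24.1 and 24.5 FPKM, then 34.7 and 36.0, limma adjusted p = 0.0142), were called; the 5 libraries alone called 12 higher and 1 lower. The calls of Tk1 and Cdc45 were both lost without DMSO replicate 2 or 3. No gene was called among 26 mitosis genes (median 0.14), 30 ribosome biogenesis genes (median 0.17) and 19 G1 cyclins and CDK inhibitors (median 0.09). There the 5 libraries alone called 6, 8 and 1 higher. Myc was at 73.0, 66.3 and 67.1 FPKM in DMSO and 79.7 and 80.8 after PGE2 (limma adjusted p = 0.700).

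Stem cell and Wnt genes were called at 6.67% and 5.26%, near the 5.99% of all genes. Of 30 haematopoietic stem cell genes 2 fell and none rose, with a median of -0.09. Procr, the endothelial protein C receptor that marks stem cells, was at 20.8, 22.2 and 22.3 FPKM in DMSO and 14.3 and 12.1 after PGE2 (1.65-fold lower, limma adjusted p = 0.0139). Thy1, another surface marker, was at 7.40, 8.10 and 8.92 FPKM and then 5.51 and 5.39 (1.49-fold lower, limma adjusted p = 0.0321). Neither overlapped between the groups, and both calls were lost without any one of DMSO replicates 2 and 3 and the PGE2 libraries. Of 19 Tcf/Lef and Wnt genes only Cd44, a hyaluronan receptor and Wnt target, was called (57.2, 63.5 and 65.0 FPKM, then 46.3 and 46.3, limma adjusted p = 0.0142). Tcf7 was at 1.14 ± 0.350 and 0.845 ± 0.203 FPKM (limma adjusted p = 0.570), Lef1 was below 1 FPKM in every library and not tested, and Ctnnb1, beta-catenin, was at 99.2 ± 2.18 and 88.1 ± 1.1 (limma adjusted p = 0.169). Among 24 homing and adhesion genes 5 fell, Cd44 included, and Itgam rose. Ccr7, a chemokine receptor of lymph node homing, was at 6.14, 4.85 and 4.73 FPKM and then 2.84 and 2.10 (2.12-fold lower), Itga5, a fibronectin receptor chain, at 22.0 ± 1.25 and 14.6 ± 0.210, and Itgb7 and Pecam1 fell by 1.57-fold and 1.5-fold. Cxcr4, the marrow homing receptor, was not called, at 42.7, 39.7 and 40.0 FPKM and then 47.3 and 48.5 (limma adjusted p = 0.0814). Itga5 alone of these holds throughout; 4 of the 5 were kept without PGE2 replicate 1 and 1 without PGE2 replicate 2.

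BCL2 family genes were called at 7.14%, p53 targets at 17.4% and FoxO and growth restraint genes at 20.0%, against 5.99% of all genes. Bbc3, the death gene PUMA, fell from 14.4, 12.9 and 13.4 FPKM in DMSO to 9.51 and 9.46 after PGE2 (1.43-fold, limma adjusted p = 0.0151) and was the only one of 14 BCL2 family genes called; Bcl2 (4.08 ± 0.203 and 4.65 ± 0.0399 FPKM) and Mcl1 (81.2 ± 2.14 and 83.3 ± 3.52) were not. The Bbc3 call was lost without DMSO replicate 3. Among 23 p53 targets Mdm2, Bbc3, Plk2 and Perp fell and none rose. Of these 4 calls, 2 were kept without DMSO replicate 2 and 1 without DMSO replicate 3. Of 20 FoxO and growth restraint genes Klf2 rose and 3 fell, with Sgk1, a kinase of salt and stress responses, at 26.9, 29.9 and 29.2 FPKM and then 13.8 and 13 (2.14-fold lower, limma adjusted p = 1.32e-04), and Trib1, a pseudokinase, at 11.6, 13.3 and 13.5 and then 5.60 and 5.50 (2.31-fold lower, limma adjusted p = 1.54e-04). Both groups were cleanly apart and both calls hold throughout. Of 20 antioxidant genes of the NRF2 type 2 fell (Gclm and Cat), and none of 15 heat shock or 15 clock genes tested was called. Among 29 genes of amino acid stress and the unfolded protein response Vldlr rose and Edem1 fell (6.90% called). Both calls were lost without DMSO replicate 2 or 3. Among 12 glucocorticoid targets Tgm2 rose while Dusp1, Sgk1 and Errfi1 fell (33.3% called).

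**Figure D4:**
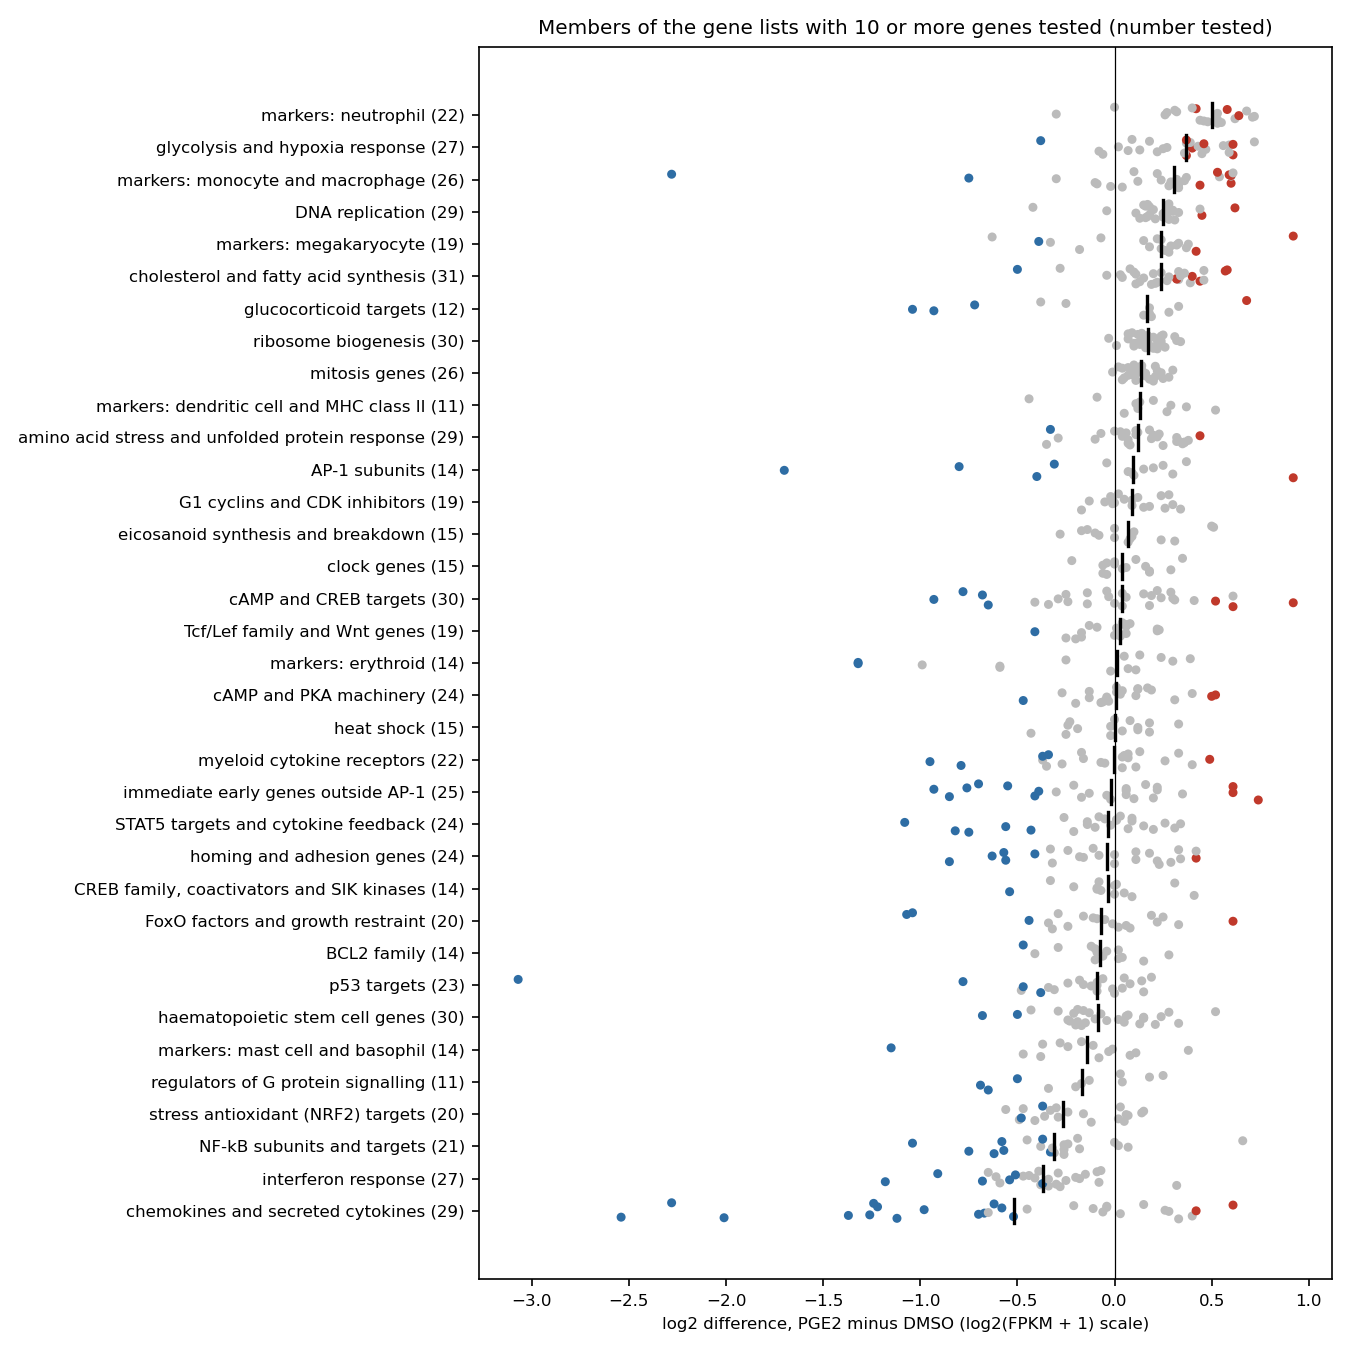
Log2 difference, PGE2 minus DMSO, of each member (points) of the lists with at least 10 genes tested, with the list median as a bar; red points rose, blue points fell and grey points were not called. Chemokines (median -0.52) stand at the bottom and neutrophil markers (median 0.50) at the top.

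Summed levels of several marker lists differed between the groups, though few of their members were called. In bulk RNA fewer cells of a type cannot be told apart from less RNA of it per cell. The summed level of 23 neutrophil genes was 6853, 5821 and 5770 FPKM in DMSO and 8460 and 8567 after PGE2. Of 22 tested, 20 were above 0 (median 0.50), against 5733 of 11181 over all genes. Called were 13.6%, against 5.99% of all genes. Only Ngp, Chil3 and Itgam were called. Itgam, one of the lineage antigens, was 1.34-fold higher (limma adjusted p = 0.0212). None of these 3 calls was kept without DMSO replicate 2 or 3. The granule enzymes Mpo (1331 ± 122 and 1946 ± 32.0 FPKM) and Elane (1275 ± 144 and 1832 ± 1.73) were not called, with limma adjusted p = 0.425 and 0.259, while the 5 libraries alone called 16 of the 22 higher and 1 lower. Megakaryocyte genes summed to 898 to 922 FPKM in DMSO and 1265 to 1275 after PGE2, and without Thbs1, which is on that list, to 520 to 574 and 564 to 578. Mast cell and basophil genes summed to 424 to 433 and 313 to 316 FPKM. Gzmb, a granule protease on that list, fell from 155, 167 and 162 to 73.8 and 70.2 (2.24-fold, limma adjusted p = 6.70e-04). It was the only one of 14 tested that was called, and no sum without it was made. Cpa3 was at 17.4 ± 0.898 and 16.4 ± 0.237 and was not called. Monocyte and macrophage genes summed to 2091 to 2366 and 2030 to 2086 FPKM, but without Spp1, which is on that list, to 1457 to 1733 and 1893 to 1963, a difference with no overlap. Of the 26 tested, 20 were above 0 (median 0.30) and 26.9% were called. Called higher were 5 (Mpeg1, Cd14, C1qc, Mrc1 and F10), and Cx3cr1 and Spp1 were lower. Of these 5 rises 1 was kept without DMSO replicate 2 and 1 without DMSO replicate 3. Both sums without a gene were chosen after the values were seen.

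The remaining markers were low or mixed. Eosinophil genes summed to 64.8 to 79.4 FPKM in DMSO and 90.5 to 100 after PGE2 with none of 6 called, and erythroid genes to 244 to 262 and 230 to 233 with only the globins Hbb-b2 and Hbb-bt lower, which hold identical values in the files. B lymphoid genes summed to 20.7 to 22.1 FPKM and 17.8 to 18.7, T and NK cell genes to 47.6 to 56.1 and 64.1 to 64.4, and stromal and endothelial genes to 57.3 to 65.2 and 43.9 to 45.9. Dendritic cell and MHC class II genes summed to 256 to 321 FPKM and 282 to 297, which overlap. The only markers at 0 in all 5 libraries were Mcpt4, Trat1 and Lum. The phagocyte rises, Spp1 and the chemokine falls thus came with higher neutrophil sums and, apart from Spp1, higher monocyte sums, and the part of either in those results was not tested.

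**Figure D5:**
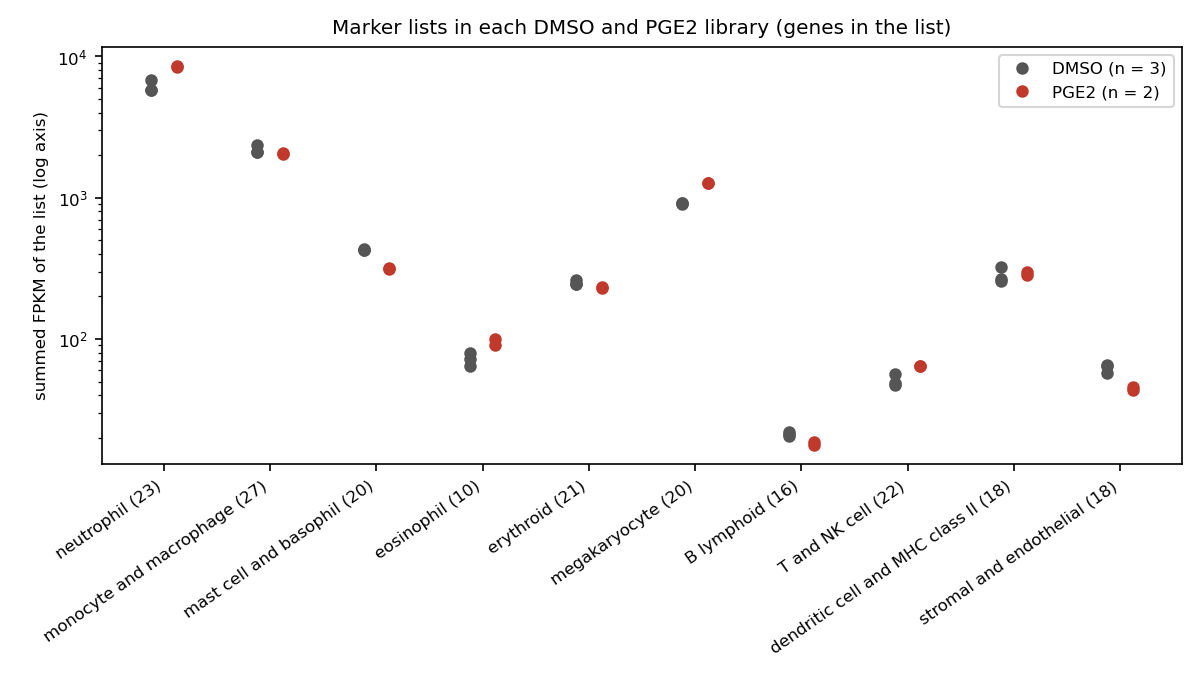
Summed FPKM (log axis) of 10 marker lists in each DMSO and PGE2 library. Neutrophil sums rise from 5770 to 6853 in DMSO to 8460 to 8567 after PGE2. Mast cell and basophil sums, Gzmb included, go from 424 to 433 to 313 to 316.

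PGE1 was given at the same dose and for the same time, so the 2 compounds can be set side by side; PGE1 lacks a double bond that PGE2 has in one of its side chains. This is 1 pair of compounds, tested gene by gene in the same limma fit with adjustment over all 11181 genes, of which 5994 (53.6%) differed between PGE2 and PGE1. Comparisons of each with vehicle share the DMSO libraries, so their values are given side by side only. The PGE1 libraries varied more among themselves (mean chi-square per gene 12.3 to 47.9) than the PGE2 libraries. Of the 25 largest falls after PGE2, 8 were higher after PGE2 than after PGE1, 10 lower and 7 not called, and the PGE1 mean was below the DMSO mean in 24, with Npy the exception. Among the 25 largest rises, 13 were higher after PGE2 than after PGE1, 9 lower and 3 not called, and the PGE1 mean was above the DMSO mean in 13. The rises and falls were chosen by the same PGE2 values, which favours PGE2 above PGE1 among rises and below it among falls.

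For some genes no difference between the compounds was found. Mmp13 was at 1.64 ± 0.0657 FPKM after PGE2 and 1.52 ± 0.137 after PGE1, a log2 difference of 0.06 with a 95% interval of -0.16 to 0.29 (limma adjusted p = 0.611). Perp was at 3.12 ± 0.618 and 3.69 ± 0.167 FPKM (-0.20, interval -0.43 to 0.04, limma adjusted p = 0.138). Ccl9 was at 83.3 ± 2.75 and 74.4 ± 6.73 FPKM (0.16, interval -0.02 to 0.35, limma adjusted p = 0.124). The bound farthest from 0 in these 3 intervals was -0.43, in Perp. Slc16a3 (0.07, interval -0.13 to 0.27) and Chil3 (-0.12, interval -0.39 to 0.15) were likewise not called.

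Other falls were deeper after PGE2. Ccl5 was at 2.94 and 3.46 FPKM after PGE2 and 12.7, 18.1 and 13 after PGE1 (log2 difference -1.88, interval -2.20 to -1.55, limma adjusted p = 2.30e-05). Npy was at 5.29 and 6.70 FPKM and at 27.1, 34.9 and 26.3 (-2.12, interval -2.42 to -1.81, limma adjusted p = 1.08e-05). Pdpn was at 1.97 and 2.30 FPKM and at 11.2, 8.88 and 7.98 (-1.71, interval -2 to -1.43, limma adjusted p = 2.12e-05). Inhba, Avil, Uchl1 and Tnfrsf9 were lower after PGE2 too, by -1.77, -1.45, -1.17 and -1.07. The reverse held for Mmp10, at 1.40 and 0.969 FPKM after PGE2 and 0.0786, 0.0591 and 0 after PGE1, and for Pgf, Nov, Hbegf and Socs3, which were higher after PGE2 by 1.70, 1.39, 1.1 and 1.58.

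Among immediate early and AP-1 genes the compounds were far apart. Egr1 was at 151 and 156 FPKM after PGE2 and 5.74, 4.47 and 3.58 after PGE1 (log2 difference 4.80, interval 4.44 to 5.16, limma adjusted p = 1.16e-06), with DMSO at 91.9 ± 12.5. Fosb was at 86.8 and 90.1 FPKM and at 0.806, 0.923 and 0.794 (5.60, interval 5.43 to 5.78, limma adjusted p = 2.26e-09), with DMSO at 117 ± 8.53. Klf2 was at 31.9 and 33.6 FPKM and at 4.58, 4.09 and 3.17 (2.78, interval 2.48 to 3.08, limma adjusted p = 5e-06). After PGE1 all 3 lay far below vehicle, while after PGE2 Egr1 and Klf2 had risen and Fosb had fallen by 1.33-fold. For Thbs1, Dgat1, Cables1, Cnnm2 and Cd14 the PGE2 level lay between vehicle and PGE1. Dgat1 was at 28.2 and 27.6 FPKM after PGE2 and 137, 168 and 140 after PGE1 (-2.37, interval -2.61 to -2.12, limma adjusted p = 4.37e-06). Of cyclic AMP genes, Pde4d was at 2.55 ± 0.241 FPKM after PGE2 and 9.28 ± 1 after PGE1 (-1.53, interval -1.77 to -1.29), and Crem at 5.88 ± 0.620 and 27.8 ± 6.20 (-2.05, interval -2.41 to -1.69). Rgs1 was at 13.8 ± 0.626 FPKM after PGE2 and 53.9 ± 6.32 after PGE1 (-1.88, interval -2.10 to -1.67), and so lay on opposite sides of the vehicle mean of 22.2 ± 0.434.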

How the data were processed

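Sorted mouse cells were measured by RNA sequencing, and the authors deposited 1 FPKM value per gene and library. The submitters' processing notes name CASAVA 1.8, TopHat, Cufflinks and the mouse build mm9; annotation, strand and the handling of shared reads: not given in the sources used here. All values of the 19057 genes with reads were whole multiples of 1 read (within 0.0001), which gave the depths; counts derived in this way cover counting error only. Groups came from the sample titles.

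Two-sided tests used limma 3.58.1 in R 4.3.3 on log2(FPKM + 1), with eBayes and an intensity trend, over DMSO, PGE2 and PGE1 libraries together (8), and Benjamini-Hochberg adjustment at 0.05. Folds are ratios of mean FPKM. The fit was tested on simulated data. Tables were made with pandas 2.3.3 and numpy 2.4.6 under Python 3.11.15, and figures with matplotlib 3.10.9.

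The comparison, the 42 gene lists and the tests were chosen with earlier results of these data known. The rule for naming genes took the 25 largest rises and falls among called genes (5 FPKM or more in the higher group, groups not overlapping, no clone-type symbol), the 4 smallest p-values of each list, and any member of the receptor, cyclic AMP, CREB and Wnt lists. Other members of lists, families counted by symbol and the genes of the comparison with PGE1 were named after their values were seen. Promoters came from RefSeq (GRCm38.p6), a later build than the files', and were matched by symbol. Some genes of the lists are not reported here.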

Additional observations from a re-analysis of the deposited data

How the results depend on the processing

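Counts depended on the libraries in the fit and on its weighting. With only the 5 PGE2 and DMSO libraries, 1729 genes were called (710 higher, 1019 lower), and without DMSO replicate 1 as well, a choice made after seeing the data, 3524 (1870 higher, 1654 lower). Array weights, which gave DMSO replicate 1 and PGE1 replicate 2 the lowest weights (0.448 and 0.203), called 3818 (1913 higher, 1905 lower, 50.1% higher). Quantile normalization and voom on recovered reads gave 226 and 189 higher genes against 116. Leaving out each library in turn gave 136 to 1270 calls, 6 to 378 higher and 130 to 892 lower. With the replicate number as a block, 307 genes were called (31 higher, 276 lower). Same-numbered DMSO and PGE2 libraries did not deviate together (r = -0.07 and -0.06 across genes). For DMSO and PGE1 replicates 1, 2 and 3, r was -0.16, -0.26 and 0.26. With 2 PGE2 libraries the deviations of one mirror those of the other, so these values cannot decide whether the numbers pair the samples. The cause of these shifts was not tested. A pseudocount of 0.1, no filter, a minimum of 5 FPKM and median-of-ratios scaling kept all 3 counts within 1.5 times, as every alternative that includes the PGE1 libraries did for PGE2 against PGE1 (4226 to 6593 calls when 1 library was left out).

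No named gene turned its direction past the threshold under any of the 18 alternatives in which it was tested (181 genes with the minimum of 5 FPKM). With 2 PGE2 libraries, leaving one out rests the arm on a lone sample that is assumed to vary like the others, and 64 and 73 named genes then lost their call. Depth limits low genes, which the log2(FPKM + 1) scale also compresses.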
